A study of Mus musculus with 24 samples.

Results

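The response of macrophages to rosiglitazone (RSG) in the presence of IL-4 was compared between wild-type (WT) and STAT6-deficient (STAT6KO) mice as a difference of responses, the change with RSG in WT minus the change with RSG in STAT6KO. Bone marrow cells of 3 WT and 3 STAT6KO mice were grown for 10 days in M-CSF at 20 ng/ml, which every culture received. The study's text gives strain C57Bl/6 for the WT mice and names none for the STAT6KO mice. The cultures compared here also received IL-4 at 20 ng/ml, and either RSG at 1 µM or its vehicle, a DMSO and ethanol mix. Arrays with the same number in their titles were taken to come from 1 mouse, though the titles name no animal. On that reading each mouse gave 1 culture and 1 array per treatment. These are 12 of the 24 arrays of the series, in 4 groups of 3, WT IL-4, WT IL-4+RSG, STAT6KO IL-4 and STAT6KO IL-4+RSG, and they were chosen by their labels alone. STAT6KO mice lack STAT6 in every cell from which the cultures were grown, so a difference between genotypes is one between whole cultures.

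IL-4 signals through its receptor to STAT6, a transcription factor that drives the alternative activation program of macrophages. RSG is a synthetic ligand of PPARγ, a nuclear receptor that binds DNA together with RXR and switches on genes of lipid uptake, storage and oxidation, and that in macrophages can also hold back inflammatory genes. Interferon-stimulated genes form another program: type I interferon binds its receptor, an activated complex of transcription factors moves to DNA, and antiviral genes such as the Ifit, Oas and Mx families are transcribed.

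Each value below is the log2 of a deposited ratio, in which the signal of a probe set on an array was divided by the median of that probe set over the arrays. For 38889 of the 45037 probe sets a value of 0 is thus the median of the series; for the others the deposited median is not at 0. Levels of different genes cannot be compared. Stat6 itself was lower on every array labelled STAT6KO. Its log2 ratio was 0.89, 0.91 and 1.01 in WT IL-4 and 0.93, 1.01 and 1.15 in WT IL-4+RSG. In STAT6KO it was -1.90, -1.98 and -1.64 with IL-4 and -1.84, -1.81 and -1.56 with IL-4 and RSG. The difference of its RSG responses was -0.01 ± 0.17 (SE; limma, adjusted p = 0.997).

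The data showed that a set of genes responded to RSG differently in the 2 genotypes, and that most of these responded more positively in WT. A call required a Benjamini-Hochberg adjusted p under 0.05 over all probe sets in limma and a difference of at least 1.5-fold. Of 45037 probe sets 163 were called, 0.362% of all, of which 116 (0.258%) had the higher response in WT and 47 (0.104%) the lower. With 1 probe set per gene, 87 of 18193 genes were called (0.478%), 66 higher in WT (0.363%) and 21 lower (0.115%). At an unadjusted p under 0.05 there were 3482 probe sets. The median difference over all probe sets was -0.0521, close to 0.

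The 87 genes fell into 4 kinds by which genotype had the larger response. In 54 genes the larger response was a negative one in STAT6KO, with a median of -1.37 against 0.23 in WT. In 12 genes the larger response was a positive one in WT (median 1.27, against -0.20 in STAT6KO). Among the genes with the lower response in WT, 15 had a negative response in WT (median -1.26, against -0.04) and 6 a positive one in STAT6KO (median 2.72, against -0.42). The 3 per-mouse responses of WT did not overlap those of STAT6KO for any of the 87, a pattern found in 17.3% of all genes. In 36 of the 87 every WT mouse moved in one direction and every STAT6KO mouse in the other, as in 5.38% of all genes; such a pattern is favoured by the choice of genes for a difference.

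**Figure D1:**
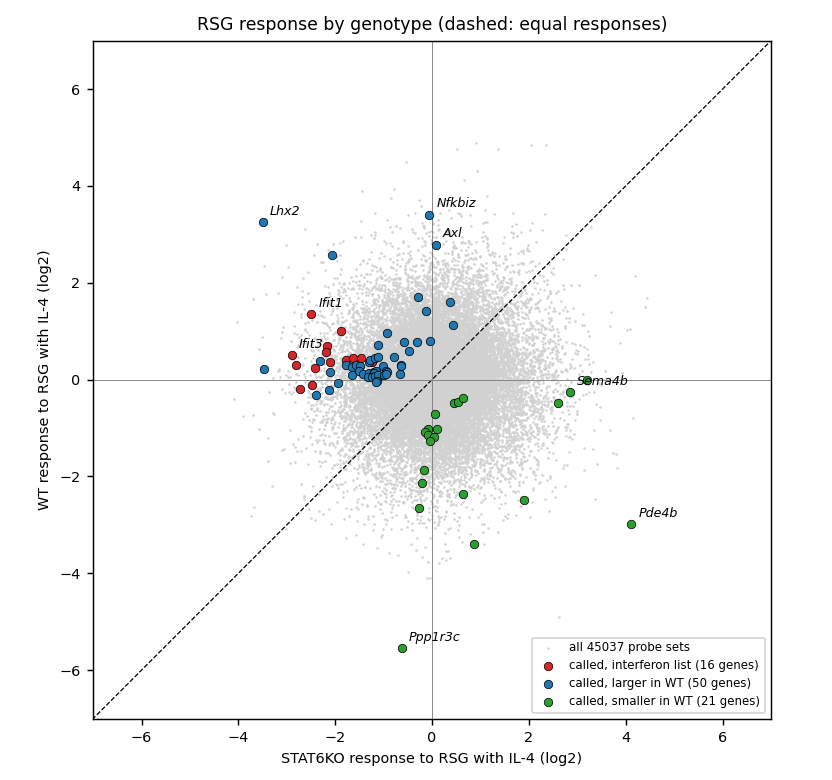
The log2 response to RSG with IL-4 in WT (vertical axis) is plotted against that in STAT6KO (horizontal axis), with grey dots for all 45037 probe sets and larger dots for the 87 called genes. The 16 called genes of the interferon list (red) lie left of the vertical zero line, with STAT6KO responses below 0 and WT responses near or above 0; blue marks the other 50 genes with the higher response in WT, and green the 21 with the lower.

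The size of the set depended on single mice. Without mouse 1 or 2 of WT, 65 or 48 probe sets were called, and without mouse 4, 5 or 6 of STAT6KO 91, 40 or 30. Without mouse 3 it was 132. Among single arrays, the count moved by over 1.5 times without the WT IL-4 array of mouse 1 (96), the WT IL-4+RSG array of mouse 2 (87), the STAT6KO IL-4 array of mouse 5 (92) or 6 (88), and the STAT6KO IL-4+RSG array of mouse 5 (96) or 6 (102). Fitting only the 12 arrays with IL-4 called 75. Of the 87 genes 15 were called in each of the 18 fits that left out a mouse or an array: 12 of the 54 with the negative response in STAT6KO, 3 of the 12 with the positive response in WT and 0 of the 21 with the lower response in WT.

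Interferon-stimulated genes made up the most coherent group. Of 21 measured genes of the list 16 were called, all with the higher response in WT, against 0.363% of all genes. The difference was above 0 for all 21, from 1.17 to 3.85 (median 2.35, against -0.06 over all genes). The list and its members were chosen with earlier results of these data known, so these counts describe the list and are no independent test of it. The median response of the list to RSG was -1.87 in STAT6KO and 0.36 in WT. The 5 genes that were not called, Mx2, Stat2, Oas3, Gbp2 and Ddx58, had differences of 3.35 ± 0.74, 1.46 ± 0.40, 2.22 ± 0.66, 1.30 ± 0.39 and 1.73 ± 0.56 (adjusted p = 0.066, 0.196, 0.267, 0.278 and 0.326; limma). Of the 21 genes, 15 were called with the mouse as a block, 10 in the fit on the 12 arrays and 6 after quantile normalization. Ifit1, Ifit3, Oas1a, Xaf1 and Ifih1 were called in all 18 fits that left out a mouse or an array, and Zbp1, Oas2 and Bst2 in at most 5.

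The mean log2 ratio of the 21 genes gives the pattern by culture. In STAT6KO it was 2.77, 3.11 and 3.21 with IL-4 and 1.11, 0.95 and 1.09 with IL-4 and RSG, so every culture with RSG lay below every culture without. In WT it was -1.19, -1.04 and -0.75 with IL-4 and -0.64, -0.44 and -0.81 with IL-4 and RSG, 2 ranges that overlap. STAT6KO cultures with RSG still lay above all WT cultures with IL-4, and above STAT6KO cultures grown without IL-4, which ranged from -0.40 to -0.15 with vehicle and from -0.70 to -0.30 with RSG. The same difference of RSG responses taken in the cultures without IL-4 had a median of 0.18 over the list. These are bulk cultures, in which fewer cells of a type and less RNA per cell cannot be told apart.

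Ifit1, an antiviral RNA-binding protein gene, had the smallest p of all genes. Its log2 ratio was -2.96, -2.80 and -2.65 in WT IL-4, -1.56, -1.5 and -1.31 in WT IL-4+RSG, 3.64, 3.95 and 4.11 in STAT6KO IL-4 and 1.71, 1.24 and 1.23 in STAT6KO IL-4+RSG. With RSG, then, the values were higher in WT and lower in STAT6KO, without overlap in either genotype. The response was 1.35 ± 0.22 in WT and -2.50 ± 0.22 in STAT6KO, and the difference was 3.85 ± 0.31 (limma, adjusted p = 9.8e-06; 95% interval 3.20 to 4.50). Without IL-4 the difference was 0.42 ± 0.31.

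The other Ifit genes shared the lower STAT6KO values with RSG but differed less between the WT treatments. Ifit3 ran from 3.94, 4.61 and 4.43 to 1.65, 1.31 and 1.32 in STAT6KO, and from -2.29, -1.88 and -1.87 to -1.48, -1.01 and -2.03 in WT. The WT arrays of Ifit3 overlapped between treatments, and the difference was 3.41 ± 0.38 (limma, adjusted p = 3.0e-04). Ifit1bl1, a close relative of Ifit1, had 4.66, 4.97 and 5.06 in STAT6KO IL-4 against 1.61, 1.37 and 1.30 with RSG, while its WT arrays ranged from -4.06 to -2.54 and from -3.68 to -2.65. Its difference was 3.69 ± 0.51 (limma, adjusted p = 0.0023), and that of Ifit2 was 2.75 ± 0.44 (adjusted p = 0.0084). Ifit1bl1 lost its call after quantile normalization, and Ifit2 there, in the fit on the 12 arrays and without mouse 2, 5 or 6. Near-identical copies in the Ifit, Oas and Schlafen families can share probe signal, so the values of single family members are less certain than those of the families.

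Promoter sequences are shown because many of these genes hold, close to their start, the letters known as the binding motif of the interferon-activated complex. The core of the interferon-stimulated response element was searched as GAAANNGAAA on both strands of the 250 bases before each gene start, in the RefSeq promoters of assembly GRCm38.p6. It was found for 453 of 14452 tested genes with a promoter (3.13%) and for 16 of the 47 (34.0%) among the 54 genes with the negative response in STAT6KO. Of the 16 called genes of the interferon list, 12 had a promoter and 6 of these held the motif. It was in 2 of 8 promoters of the genes with the positive response in WT, in 0 of 9 of those with the negative response in WT, and in 0 of 6 of those with the positive response in STAT6KO. Capitals mark the motif, alone or overlapping, in the 130 bases before the start of 4 of the called genes, written 5′ to 3′ on the strand of the gene.
Ifit1, chr19:34640759-34640888, plus strand: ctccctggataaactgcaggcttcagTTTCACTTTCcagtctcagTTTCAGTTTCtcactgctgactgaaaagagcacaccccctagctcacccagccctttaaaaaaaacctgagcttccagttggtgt
Ifit3, chr19:34583399-34583528, plus strand: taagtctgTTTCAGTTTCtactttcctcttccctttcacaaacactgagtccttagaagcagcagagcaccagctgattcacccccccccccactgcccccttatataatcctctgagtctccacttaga
Rsad2, chr12:26456453-26456582, minus strand: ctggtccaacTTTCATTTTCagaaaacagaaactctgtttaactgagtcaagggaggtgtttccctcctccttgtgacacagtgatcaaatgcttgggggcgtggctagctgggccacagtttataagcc
Oas1a, chr5:120907526-120907655, minus strand: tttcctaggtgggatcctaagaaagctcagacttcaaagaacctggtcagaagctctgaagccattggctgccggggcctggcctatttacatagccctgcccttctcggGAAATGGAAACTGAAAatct

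Ifit1 held the motif at 2 places, beginning 104 and 85 bases before the start, Ifit3 at 156, outside the bases shown, and 122, and Rsad2 at 120. In Oas1a a pair of overlapping matches began at 20 and 14 bases. The motifs of STAT6 and PPARγ were searched in the same windows. The palindrome TTCNNNNGAA, bound by STAT6, was in 5.92% of all promoters and in 4 of the 47 (8.51%). The direct repeat AGGTCANAGGTCA of PPARγ and RXR was in 7 promoters of all tested genes (0.0484%) and in none of a called gene. At so low a share its absence from the 70 called genes with a promoter says nothing on PPARγ sites. The search took only the exact repeat within 250 bases.

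Antiviral effectors beyond the Ifit family had the same pattern. Mx1, an antiviral GTPase, was at 3.86, 4.44 and 4.25 in STAT6KO IL-4 and at 1.30, 1.39 and 1.43 with RSG. In WT it was at -2.01, -1.72 and -1.88 and at -1.89, -1.19 and -1.63 with RSG, which overlap. The difference was 3.11 ± 0.43 (limma, adjusted p = 0.0023), lost without mouse 5 (3.00, adjusted p = 0.062) and after quantile normalization (2.26, adjusted p = 0.069). Oas1a, a synthetase of the 2′-5′-linked oligoadenylates that activate RNase L, was at 2.05, 2.42 and 2.38 in STAT6KO IL-4 and at 0.88, 1.04 and 1.22 with RSG. Its WT values were -0.14, -0.05 and 0.11, and 0.39, 0.32 and 0.29 with RSG, so the groups did not overlap in either genotype (difference 1.59 ± 0.17; limma, adjusted p = 2.5e-04). Oasl1 (2.66 ± 0.37), Oasl2 (2.19 ± 0.37), Oas1c (1.68 ± 0.34) and Oas2 (1.91 ± 0.39) of the same family were called too, the last of them neither with the mouse as a block nor in the fit on the 12 arrays. Rsad2, which encodes viperin, and its neighbour Cmpk2, a mitochondrial nucleotide kinase gene, had differences of 2.52 ± 0.42 and 2.70 ± 0.32. A second Cmpk2 probe set gave 0.81 ± 0.49 (adjusted p = 0.763).

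The chemokine gene Cxcl10, whose product attracts activated T cells, was at 2.81, 3.42 and 3.64 in STAT6KO IL-4 and at 1.58, 1.25 and 1.44 with RSG. In WT it was at -4.07, -2.35 and -3.74 and at -2.31, -2.27 and -2.59 with RSG, where the mouse 1 and mouse 3 arrays without RSG stood below the rest. The difference of 2.87 ± 0.52 (limma, adjusted p = 0.019) lost its call with the 12 arrays alone, after quantile normalization and in 10 of the 18 fits that left out a mouse or an array. Apart from Lhx2, the called genes of this kind not yet named had smaller differences, down to 0.77 ± 0.15 for Pnp, a purine nucleoside phosphorylase gene. They included the ubiquitin ligase gene Rnf213 (1.38 ± 0.16), the RNA helicase gene Znfx1 (1.92 ± 0.20), Xaf1 (2.08 ± 0.26), the exonuclease gene Isg20 (1.88 ± 0.30), the Schlafen genes Slfn5 (1.68 ± 0.30) and Slfn8 (1.63 ± 0.21), and Bst2, which encodes tetherin (1.17 ± 0.23).

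Upstream of these targets, values were less uniform. Genes of the interferon pathway were set out in 3 lists that were chosen after values of these data had been seen. Of 11 ligand and receptor genes 0 were called (limma; 2 at an unadjusted p under 0.05, 3 by the equal-variance test of the study's methods, of which 0 after adjustment). Over all genes 0.478% were called, so 0 of 11 is near that share. Ifnb1, the interferon beta gene, had responses of 0.30 in WT and -1.06 in STAT6KO (difference 1.36 ± 0.54, limma, adjusted p = 0.514). The receptor gene Ifnar1 had -0.01 and -0.08 (difference 0.07 ± 0.27).

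Of 12 signalling genes 3 were called, all higher in WT, namely Irf7, Usp18 and Irf9, against 0.363% of all genes called higher in WT. Irf7, the transcription factor that amplifies type I interferon production, was at 3.65, 3.93 and 4.05 in STAT6KO IL-4 and at 2.07, 1.45 and 1.65 with RSG, and in WT at -1.81, -2.52 and -1.07 and at -1.32, -0.74 and -1.23. The difference was 2.86 ± 0.47 (limma, adjusted p = 0.0090), lost in the fit on the 12 arrays, after quantile normalization and without mouse 1, 5 or 6. Usp18, which encodes a protease that dampens signalling at the interferon receptor, was at 2.77, 2.88 and 3.27 in STAT6KO IL-4 and at 0.57, 0.30 and 0.63 with RSG. With RSG it was thus below WT, where it was at 1.77, 1.72 and 1.43 and at 1.61, 1.56 and 1.38 (difference 2.35 ± 0.34; limma, adjusted p = 0.0033). Irf9, the DNA-binding subunit of the interferon-activated complex, differed by 0.95 ± 0.19 (adjusted p = 0.032). It was not called with the mouse as a block, in the fit on the 12 arrays, after quantile normalization or in 16 of the 18 fits that left out a mouse or an array. The kinase gene Jak1 and the factors Irf3 and Irf8 gave 0.03 ± 0.38, -0.31 ± 0.44 and -0.03 ± 0.19. Among 15 nucleic acid sensors and adaptors 2 were called, Ifih1, the gene of the RNA sensor MDA5 (1.36 ± 0.18), and Zbp1 (2.48 ± 0.46). Both were called higher in WT, as were 0.363% of all genes. The genes Irf7, Usp18, Ifih1 and Zbp1 also stand on the list of interferon-stimulated genes.

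**Figure D2:**
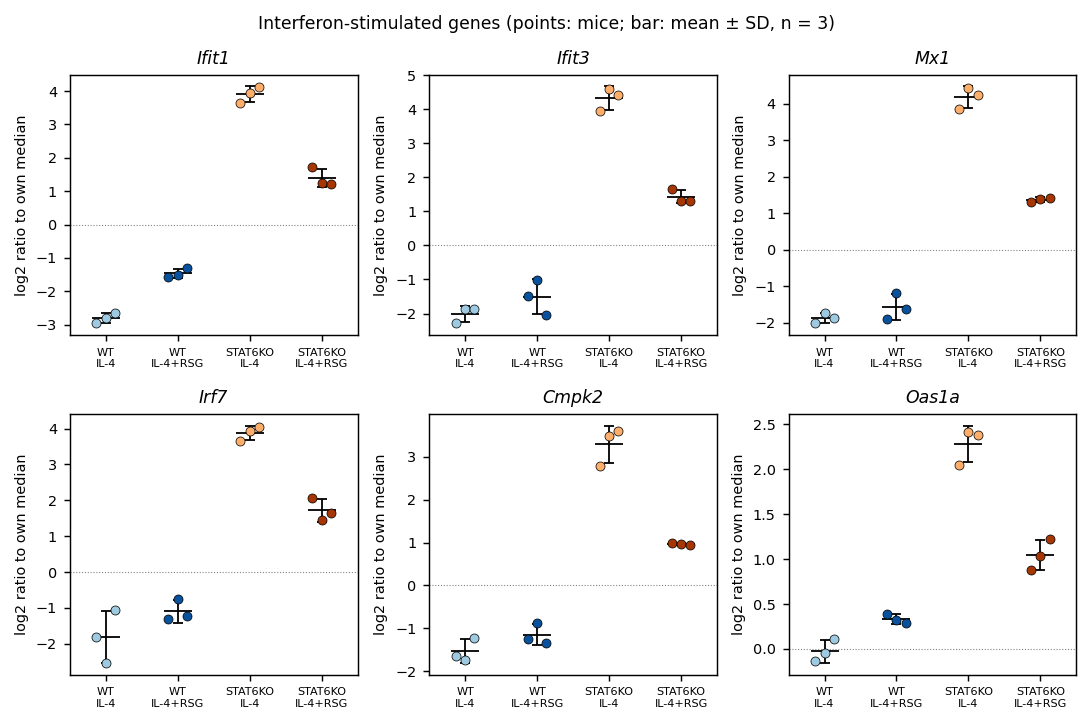
Log2 ratios (vertical axes) of 6 interferon-stimulated genes on the 12 arrays with IL-4, with a point for each mouse and bars for the mean ± SD of 3 mice in each group. In all 6 panels the 3 STAT6KO IL-4+RSG arrays lie below the 3 STAT6KO IL-4 arrays and above the WT arrays, whereas WT arrays without and with RSG are apart only for Ifit1 and Oas1a.

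The genotypes lay closer together with RSG for most of these genes. With IL-4 alone, all 3 STAT6KO arrays were above all 3 WT arrays in 52 of the 54 genes with the negative response in STAT6KO, with a median gap of 2.35. With IL-4 and RSG this held for 36 of the 54 and the median gap was 0.72, while 8 had all STAT6KO arrays below all WT arrays. The gap was smaller with RSG in 49 of the 54. These counts use the arrays of the contrast that called the genes and are a description, with no test.

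Markers of several other blood cells had higher ratios in the STAT6KO cultures with IL-4 than in those of WT, and some differed with RSG. The mean of 14 lymphocyte markers was 3.47, 3.52 and 3.94 in STAT6KO IL-4 and 2.77, 3.25 and 2.88 with RSG, and all 14 had a STAT6KO response at or below 0. In WT that mean ranged from -0.74 to 0.35 without RSG and from 0.14 to 0.35 with it. The median difference of responses over the list was 0.95, with 0 of 14 called (limma; 3 at an unadjusted p under 0.05, 4 by the methods' t-test, of which 0 after adjustment). That lack of calls is near the share over all genes (0.478%). In STAT6KO cultures with neither IL-4 nor RSG the lymphocyte mean was -1.64 to -1.15. Mast cell and basophil markers averaged 4.51 to 5.05 in STAT6KO IL-4 and 5.02 to 5.38 with RSG, and neutrophil and granule precursor markers 3.24 to 3.62 and 3.32 to 3.62. Eosinophil markers averaged 2.58 to 2.77 and 1.98 to 3.30, and erythroid and megakaryocyte markers 1.16 to 1.31 and 1.08 to 1.51. The 12 measured macrophage markers averaged 0.11 to 0.22 in STAT6KO IL-4 and -0.07 to 0.09 with RSG, with a median difference of responses of -0.04. In WT they averaged -0.85 to -0.74 with IL-4 and -0.94 to -0.83 with IL-4 and RSG. Macrophage markers were thus also higher in STAT6KO, without overlap. The part of these cells in the interferon result was not tested.

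A smaller group of 12 genes responded to RSG positively in WT. Axl, a receptor tyrosine kinase that helps macrophages take up dying cells, was at -5.85, -5.28 and -5.22 in WT IL-4 and at -2.74, -2.63 and -2.62 with RSG. In STAT6KO it was at 0.12, 0.37 and 0.31 and at 0.30, 0.23 and 0.51. The responses were 2.79 ± 0.20 in WT and 0.08 ± 0.20 in STAT6KO, and the difference was 2.71 ± 0.28 (limma, adjusted p = 2.1e-04). It was not called with a variance trend (adjusted p = 0.057) or with 0.1 added to each ratio (0.99, adjusted p = 0.065), and a second Axl probe set gave -1.37 ± 1.71.

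Nfkbiz, which encodes a nuclear inhibitor protein of the NF-κB family, was at -5.72, -6.39 and -6.64 in WT IL-4 and at -2.83, -3.08 and -2.63 with RSG. The lowest of these is the floor of the deposited ratios. Its STAT6KO arrays were at 1.14, 0.80 and 1.19 and at 1.20, 0.99 and 0.77, and the difference was 3.47 ± 0.39 (limma, adjusted p = 3.0e-04). With 0.1 added to each ratio it was 1.13 (adjusted p = 0.182), and the other 2 probe sets gave 0.49 ± 0.36 and 0.77 ± 0.68. The WT IL-4 values of both genes thus lay near the floor.

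Sirpb1a, a receptor gene of the signal-regulatory protein family, did not lie near the floor. It was at -1.76, -1.85 and -1.23 in WT IL-4 and at -0.19, 0.27 and 0.17 with RSG, and in STAT6KO at 0.15, 0.43 and 0.57 and at -0.03, 0.07 and 0.29. WT arrays with RSG thus reached the range of STAT6KO (difference 1.97 ± 0.25; limma, adjusted p = 9.6e-04). Axl, Nfkbiz and Sirpb1a were the 3 genes of this kind called in all 18 fits that left out a mouse or an array. The others included Frmd4a (1.33 ± 0.21), the glutathione transferase gene Gstt2 (1.22 ± 0.25), the carotenoid oxygenase gene Bco2 (1.88 ± 0.36), the peptidoglycan sensor gene Nod1 (1.10 ± 0.22) and P2ry14, a receptor for UDP-glucose (0.83 ± 0.16). Of these 5, all but Frmd4a were called in at most 5 of the 18 fits.

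Enpep, an aminopeptidase gene, and Lhx2, a LIM homeobox transcription factor gene, had the largest positive differences together with wide spreads. Lhx2 was at 1.17, 1.06 and 2.17 in WT IL-4 and 4.21, 5.07 and 4.87 with RSG, and at 1.91, 1.85 and 1.85 in STAT6KO IL-4 and 0.21, -2.96 and -2.14 with RSG. The difference was 6.75 ± 1.18 (limma, adjusted p = 0.015), lost after quantile normalization and without mouse 2, 5 or 6. Enpep differed by 4.64 ± 0.93 (adjusted p = 0.036) and lost its call with the 12 arrays alone (adjusted p = 0.115), after quantile normalization and in 16 of the 18 fits that left out a mouse or an array, among them each fit without a mouse.

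The 21 genes with the lower response in WT kept fewer of their calls, with 1 of them called in the fit on the 12 arrays, 11 with the mouse as a block and 3 after quantile normalization. Mfsd6, a transporter-like membrane protein gene, was called on several probe sets. It was at -0.24, -0.59 and 0.07 in WT IL-4 and at -2.17, -2.79 and -2.21 with RSG, but in STAT6KO at 0.05, -0.38 and 0.03 and at -0.32, -0.02 and -0.59. The difference was -1.93 ± 0.37 (limma, adjusted p = 0.026), and its other 2 probe sets, called as well, gave -2.04 ± 0.33 and -2.11 ± 0.42. The named probe set lost its call in the fit on the 12 arrays, after quantile normalization and in 12 of the 18 fits that left out a mouse or an array, among them those without mouse 1, 2, 4, 5 or 6.

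Ppp1r3c, which encodes a subunit that brings protein phosphatase 1 to glycogen, was at 4.47, 3.97 and 3.43 in WT IL-4 and at -2.70, -1.32 and -0.77 with RSG. Its STAT6KO arrays were at 0.06, 0.37 and 1.32 and at 1.27, -1.36 and -0.06, which overlap. The response was -5.55 ± 0.62 in WT and -0.63 ± 0.62 in STAT6KO, and the difference was -4.92 ± 0.88 (limma, adjusted p = 0.017), lost in the fit on the 12 arrays (adjusted p = 0.155), after quantile normalization (adjusted p = 0.086) and in 6 of the 18 fits that left out a mouse or an array (mouse 1, 2, 4 or 6, the WT IL-4 array of mouse 1 and the STAT6KO IL-4 array of mouse 5). A second probe set gave -3.46 ± 1.36 (adjusted p = 0.513). Genes of this kind with smaller differences included Itga6, an integrin gene (-1.22 ± 0.25), Bambi, a pseudoreceptor gene of the TGF-β pathway (-1.13 ± 0.23), the kinase gene Tec (-0.92 ± 0.19) and the GTPase gene Rhob (-0.78 ± 0.16). Cd28, a costimulatory receptor gene, was called in 0 of the 18 fits that left out a mouse or an array (-1.07 ± 0.22, adjusted p = 0.039 with all arrays).

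Sema4b, a semaphorin gene, was the gene called in the fit on the 12 arrays (adjusted p = 0.0064). It was at 1.64, 1.19 and 1.53 in WT IL-4 and at 1.15, 1.5 and 0.92 with RSG, which overlap, and at -2.66, -2.60 and -2.72 in STAT6KO IL-4 and 0.22, 0.12 and 0.19 with RSG. The difference was -3.10 ± 0.51 (limma, adjusted p = 0.0099), and its call was lost without mouse 1, 4, 5 or 6. A second probe set gave -0.80 ± 0.20 (adjusted p = 0.133). Without IL-4 the difference was 4.67 ± 0.51, of the opposite sign and larger.

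Several of the largest negative differences came from a probe set that stood alone among those of its gene. Pde4b, a cyclic AMP phosphodiesterase gene, gave -7.09 ± 1.47 (limma, adjusted p = 0.044), while its other 5 probe sets lay between -0.17 and 0.77 and were not called. Atg4b, an autophagy protease gene, gave -3.09 ± 0.57 against -0.13 on both others. Idh3a, a subunit of mitochondrial isocitrate dehydrogenase, gave -3.00 ± 0.57 against 0.30, -0.78 and -0.21, and Smoc2 -4.40 ± 0.88 against 1.31 ± 0.99. These genes were represented by the probe set with the highest SD over the arrays.

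**Figure D3:**
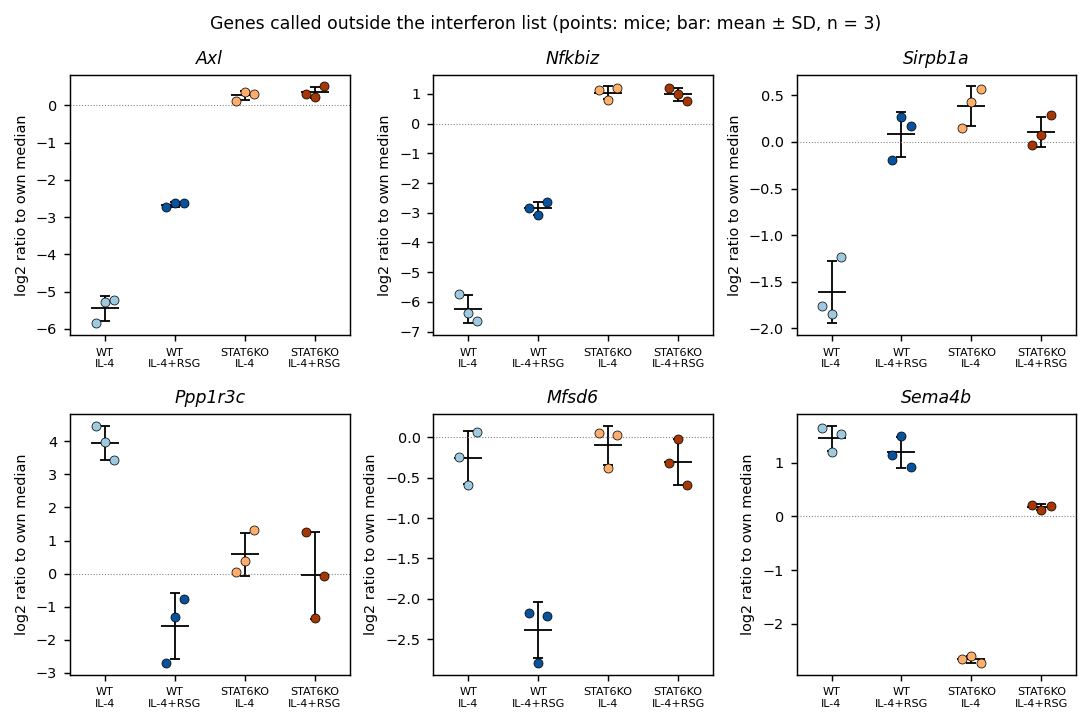
Log2 ratios (vertical axes) of 6 called genes outside the interferon list on the 12 arrays with IL-4, with a point for each mouse and bars for the mean ± SD of 3 mice in each group. The WT arrays differ between treatments for Axl, Nfkbiz, Sirpb1a, Ppp1r3c and Mfsd6, whereas for Sema4b the STAT6KO arrays differ.

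Among genes of the PPARγ program, Acaa2 was the single one called in the fit on all arrays. Of 28 genes of lipid uptake, storage and lipolysis 0 were called (limma; 5 at an unadjusted p under 0.05, 8 by the methods' t-test, of which 0 after adjustment), and the median response was 0.29 in WT and 0.25 in STAT6KO. In the fit on the 12 arrays 1 of the 28 was called, Olr1, a receptor gene for oxidised lipoprotein, with responses of 2.48 in WT and 0.25 in STAT6KO (difference 2.23, adjusted p = 0.047 there and 0.494 with all arrays). Of 23 genes of fatty acid oxidation 1 was called, and 0 of 14 LXR targets (2 and 6 unadjusted, 0 after adjustment in either) and 0 of 16 receptor and coregulator genes (1 and 0 unadjusted). The median differences of these 4 lists were 0.17, 0.07, -0.11 and -0.33. Over all 18193 genes 87 were called (0.478%), so 0 calls or 1 in lists this short is not clearly apart from that share. At an unadjusted p under 0.05 there were 1479 of all genes in limma and 1906 by the methods' t-test. The unadjusted counts of the lipid genes, the LXR targets and the oxidation genes (3 and 5) were larger shares than these. Those of the receptor and coregulator genes were smaller.

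Angptl4, a secreted inhibitor of lipoprotein lipase and a PPAR target, had values of -0.50, -0.33 and -2.61 in WT IL-4 and 1.81, 2.05 and 1.96 with RSG. In STAT6KO it had -0.03, -1.61 and -0.07, and 1.10, 1.77 and 1.53 with RSG, so that both genotypes were higher with RSG without overlap. The responses were 3.09 ± 0.56 and 2.03 ± 0.56, and the difference was 1.05 ± 0.79 (limma, adjusted p = 0.827; 95% interval -0.60 to 2.71). A second probe set had a difference of 1.47 ± 0.33 (adjusted p = 0.075).

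Fabp4, a fatty acid carrier gene, had 0.82, 0.78 and 0.53 in WT IL-4 and 1.14, 1.28 and 1.41 with RSG, and -1.41, -1.06 and -1.51 and then -1.07, -1.10 and -1.07 in STAT6KO. The WT arrays did not overlap between treatments and the STAT6KO arrays did. The difference was nonetheless 0.32 ± 0.28 (adjusted p = 0.856; 95% interval -0.26 to 0.91), and its 3 other probe sets gave 1.00 ± 0.28, -0.22 ± 0.21 and -0.03 ± 0.23. For Cd36, a scavenger receptor and fatty acid transporter gene, WT arrays went from 2.02, 1.83 and 1.99 to 2.27, 2.43 and 2.60 and STAT6KO arrays from -0.51, -0.04 and -0.59 to 0.09, 0.40 and 0.63. Neither genotype overlapped between treatments, and the interval of the difference was -0.85 to 0.32. The other 2 Cd36 probe sets had responses of 0.04 and 0.06 in WT and 0.52 and 0.42 in STAT6KO, with differences of -0.48 ± 0.18 and -0.35 ± 0.18. Pparg itself was at 2.54, 2.69 and 2.50 in WT IL-4 and 1.31, 1.31 and 1.38 with RSG, and at 0.15, 0.47 and 0.27 and -0.75, -0.60 and -0.23 in STAT6KO. Its values were lower with RSG in both genotypes, with a difference of -0.43 ± 0.34 (adjusted p = 0.844; 95% interval -1.15 to 0.30). These intervals leave room for differences of the size of the call threshold.

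Scd1, the stearoyl-CoA desaturase gene, was at 1.11, 0.59 and 0.03 in WT IL-4 and at 3.24, 2.88 and 2.64 with RSG, while in STAT6KO it was at 0.47, 0.77 and 0.92 and at -0.03, 0.66 and 0.39. The difference was 2.72 ± 1.03 (limma, adjusted p = 0.483, 95% interval 0.56 to 4.88), and a second probe set gave 0.45 ± 0.68. Its per-mouse responses were 2.13, 2.29 and 2.60 in WT and -0.50, -0.11 and -0.53 in STAT6KO, while the SE pools the spread of all 8 groups. Pdk4, a kinase gene of fuel choice in mitochondria, had an interval of -2.98 to 3.02, too wide to say more. Nr1h3, the LXRα gene, differed by -0.35 ± 0.32. Acaa2, a thiolase gene of fatty acid oxidation, had responses of 1.13 ± 0.10 in WT and 0.43 ± 0.10 in STAT6KO (difference 0.70 ± 0.15; limma, adjusted p = 0.049). That call was lost with the 12 arrays alone (adjusted p = 0.329), with the mouse as a block (adjusted p = 0.075), after quantile normalization (adjusted p = 0.096) or without any 1 of the 6 mice, and its other 2 probe sets gave 0.44 ± 0.17 and 0.47 ± 0.14.

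**Figure D4:**
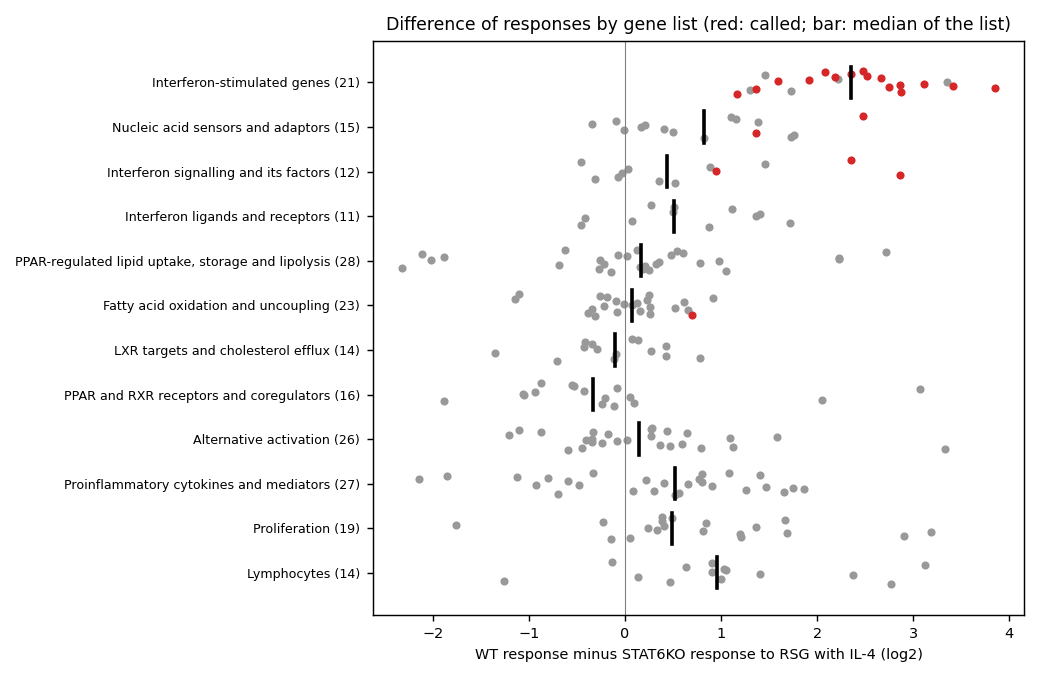
The difference of RSG responses with IL-4, WT minus STAT6KO on the log2 scale (horizontal axis), is shown for each measured gene of 12 lists, with the number of genes after the name of the list, called genes in red and a black bar at the median of the list. The interferon-stimulated genes have a median of 2.35 and all lie above 0, while the lipid uptake, fatty acid oxidation, LXR, receptor and alternative activation lists have medians between -0.33 and 0.17.

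Genes of alternative activation gave no call in limma either, which in a list of this size is near the share over all genes (0.478%). Of 26 measured genes 0 were called (limma; 2 at an unadjusted p under 0.05, 7 by the methods' t-test, of which 1 after adjustment), with a median difference of 0.14. Arg1, the arginase gene, was at 8.35, 8.36 and 8.42 in WT IL-4 and at 8.38, 8.42 and 8.45 with RSG. In STAT6KO it was at 2.56, 3.63 and 4.17 with IL-4 and at -0.74, 0.49 and 0.74 with RSG, without overlap. The difference was 3.33 ± 1.41 (limma, adjusted p = 0.571; 95% interval 0.36 to 6.30), whereas the methods' t-test, which compares the 3 per-mouse responses of each genotype, called it (adjusted p = 0.029).

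Retnla, Chil3, Mrc1 and Ccl17, further markers of the IL-4-activated state, differed by -0.33 ± 1.83, -0.24 ± 0.51, -0.18 ± 0.29 and -0.45 ± 1.12. The WT arrays of Chil3 were at 1.61, 1.62 and 1.63 without RSG and at 1.54, 1.54 and 1.57 with it, and those of Mrc1, the mannose receptor gene, between 0.94 and 1.13 and between 0.94 and 1.22. The WT responses of Chil3 and Mrc1 were -0.07 ± 0.36 and 0.02 ± 0.20. The SE pools the spread within all 8 groups, those without IL-4 included. For Chil3 it was far wider than the range of the per-mouse WT responses, which were -0.07, -0.08 and -0.06. Of 27 proinflammatory genes 0 were called (limma; 9 at an unadjusted p under 0.05, 9 by the methods' t-test, of which 0 after adjustment). Over all 18193 genes, 1479 in limma and 1906 by the methods' t-test were at an unadjusted p under 0.05. These are smaller shares than those of the 27 proinflammatory genes, whose lack of calls is near the share over all genes. The values with the smallest p were those of Icam1, an adhesion molecule gene (0.91 ± 0.22, adjusted p = 0.126), and Nfkbia, the gene of the NF-κB inhibitor IκBα (0.77 ± 0.19, adjusted p = 0.135). Of 19 proliferation genes 0 were called in limma, near the share over all genes (0.478%), with a median response of 0.56 in WT and -0.02 in STAT6KO. At an unadjusted p under 0.05 there were 6 in limma, a larger share than over all genes. By the methods' t-test there were 2, about the share over all genes, and 0 remained after adjustment in either.

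**Figure D5:**
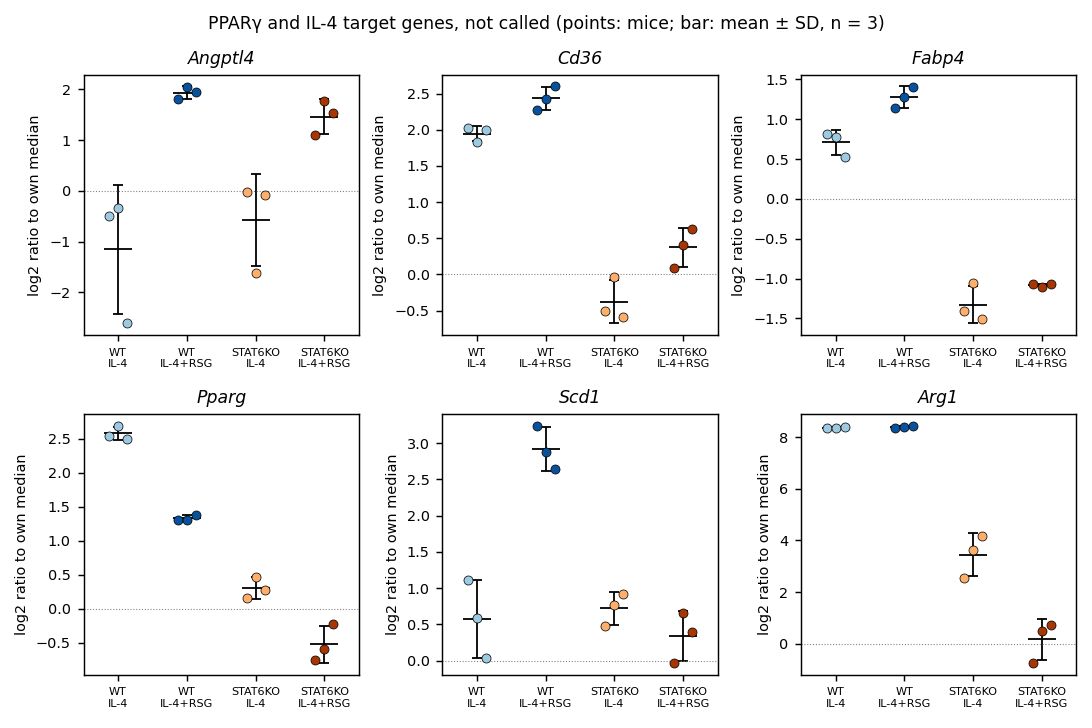
Log2 ratios (vertical axes) of 6 PPARγ and IL-4 target genes that were not called, on the 12 arrays with IL-4, with a point for each mouse and bars for the mean ± SD of 3 mice in each group. Angptl4 and Cd36 are higher and Pparg lower with RSG in both genotypes, Scd1 is higher with RSG in WT, and Arg1 is lower with RSG in STAT6KO.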

How the data were processed

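Total RNA of each culture was hybridised to an Affymetrix Mouse Genome array. The values deposited by the authors are linear ratios. Per the study's methods the scans went through GC-RMA in GeneSpring, then each array was set to its 50th percentile, and each gene was divided by the median it had in the experiment. A last division, by the matched control array, is named there but is not in the deposited ratios. GCOS and GCRMA are the tools in the submitters' processing notes. Signal over background is unknown, so precision is limited by how many arrays there are. Ratios ran from 0.01 to 1949.689, with 24 values of the 12 arrays with IL-4 at the lowest.

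The table held 45101 probe sets. After removal of 64 Affymetrix controls, 45037 were taken to log2 and tested in limma 3.58.1 (R 4.3.3; two-sided), with all 24 arrays in 8 groups (16 residual and 1.35 prior degrees of freedom, no variance trend, since a mean of ratios is no level). Adjusted p-values cover all probe sets. The ± is the SE of the fit, which pools the spread within all 8 groups, cultures without IL-4 included. A gene can thus miss a call through spread outside the 12 arrays compared. A t-test as in the methods (the methods' t-test) compared the 3 per-mouse log2 responses of each genotype, with equal variances. Symbols came from the platform annotation, where 34945 probe sets had 1 symbol, 932 several and 9160 none, and 34741 matched RefSeq genes of GRCm38.p6. For each gene the probe set with the highest SD over the arrays was used. Named genes were those of the study's text (Acsl1 and Spp1 are not reported here), the 12 largest called differences per direction without overlap, and up to 4 called genes per list; further called genes were named after their values were seen. The 23 lists, the members and the alternatives were chosen with earlier results of these data known, and 3 interferon lists after values were seen. Arrays of one number were taken to come from 1 mouse, so numbers pair arrays. The deviations of paired arrays correlated by 0.0232 on average (0.00679 to 0.0453, 6 pairs). On simulated data for this difference over 45037 probe sets, 4%, 20%, 44% and 46% of 50 changes of 1.5, 2, 4 and 8-fold were called, with 4 of 61 calls false. Figures were drawn with matplotlib.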

Additional observations from a re-analysis of the deposited data

Results flagged for a closer look

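The RSG response with IL-4 differed between the genotypes in 163 probe sets by the test of the difference itself. In 36 of the 87 called genes every WT mouse moved in one direction with RSG and every STAT6KO mouse in the other, against 978 of all 18193 genes (5.38%). The 87 genes were chosen for a difference of responses, which favours this pattern. Of these, 30 were higher in WT and lower in STAT6KO, and 6 the reverse.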

How the results depend on the processing

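Counts of called probe sets (total, higher and lower in WT: 163, 116 and 47) were 75, 53 and 22 in the fit on the 12 arrays, 43, 37 and 6 after quantile normalization and 3, 3 and 0 by the methods' t-test (4779 unadjusted). With the mouse as a replicate block they were 139, 111 and 28, of which 114 were shared. Centring each array gave 226, testing only probe sets with a median ratio of 1 gave 191, a variance trend 159 and 0.1 added to each ratio 162. The share with the higher response in WT was 86.0% after quantile normalization against 71.2%. Leaving out a mouse or an array gave 30 to 156 in all, 27 to 130 higher and 3 to 35 lower. The block ended the calls of 21 of the 87 genes. None of the 25 called genes picked by the naming rule kept its call in every alternative. Of these, Ifit1, Ifit3 and Cmpk2 lost it by the methods' t-test alone, although the other Cmpk2 probe set was not called. That tally leaves out the called genes named after their values were seen. Among those, Oas1a, Xaf1, Ifih1, Znfx1, Rnf213, Slfn8 and Sirpb1a were called in all 18 fits that left out a mouse or an array. The same genes were called in the fit on the 12 arrays, with the mouse as a block and after quantile normalization. The sign turned for Stat6 after quantile normalization (0.13), centring (0.03), 0.1 added (0.02), on the other probe set (0.03) and when an array or mouse was left out (-0.10 to 0.08), for Pdk4 with 0.1 added (-0.15) and with an array or mouse left out (-1.95 to 1.20), and on another probe set for Fabp4 (-0.03), Axl (-1.37) and Pde4b (0.74). Further probe sets of Smoc2 (1.31) and Idh3a (0.30) had the opposite sign too. The causes were not tested.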
